A study of Mus musculus with 12 samples.

Results

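Collagens are the triple-helical proteins of the extracellular matrix, each built from 3 chains. Every collagen chain gene measured in kidney tissue was examined. The members were all protein-coding genes of the deposited table whose symbol has the form Col, a type number, the letter a and a chain number, which gave 44 genes of 35275. RNA came from the kidneys of 12 C57BL/6J mice, all 6 months old, with 4 mice in each of 3 groups. WT mice carried neither engineered allele. RC/RC mice were homozygous for the RC allele of *Pkd1*, a hypomorphic missense knock-in that gives slowly progressing polycystic kidney disease. RC/RC:*Casp1*KO mice, called double mutants below where the name would repeat, carried the same *Pkd1* alleles and, on both copies of *Casp1*, a short TALEN-made deletion over the end of exon 6 that takes out the codon of the active-site cysteine. Both changes are in the germ line, so every cell of the animal carries them, and no group carried the *Casp1* deletion on a WT *Pkd1* background. Each group held 2 males and 2 females, but the table's columns name the group and a mouse number and not the sex, so no value is given by sex.

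In the kidney the collagens fall into groups with different places and jobs. Fibrillar collagens such as types I and III form the cable-like fibrils of the interstitium and accumulate in scarring, where fibroblasts and pericytes are their main known source. Type IV collagen forms the sheet-like network of basement membranes: the α1 and α2 chains are found under nearly all epithelia and vessels, whereas the α3, α4 and α5 chains make up the mature network of the glomerular basement membrane and of parts of the tubule. Other classes attach to fibrils, bridge fibrils to basement membranes, form fine filaments beside cells or span the cell membrane.

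The genes of type IV collagen lie in pairs that are read in opposite directions from a common start region, and the sequences of these regions are shown because the paired chains are compared below. In the mm10 coordinates of the table, *Col4a1* (chr8:11198423-11312826, minus strand) and *Col4a2* (chr8:11312805-11449287, plus strand) overlap by 22 bases at their 5′ ends. *Col4a4* (chr1:82448423-82586849, minus strand) and *Col4a3* (chr1:82586921-82722059, plus strand) start 71 bases apart. *Col4a6* and *Col4a5* on chromosome X start 1308 bases apart. The bases that the first pair shares (chr8:11312805-11312826) and those between the starts of the second (chr1:82586850-82586920) were read on the plus strand from RefSeq promoter windows on GRCm38.p6, and capitals mark GGGCGG, the letters of a GC box.
Col4a1-Col4a2: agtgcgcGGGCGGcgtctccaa
Col4a4-Col4a3: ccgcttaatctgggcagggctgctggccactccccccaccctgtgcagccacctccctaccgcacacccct
Neither stretch held TATAAA or CCAAT on either strand, and the second held no GGGCGG. Among all 32851 RefSeq windows, each from 250 bases before to 50 bases after a start site, 35.7% held GGGCGG on at least 1 strand, 37.4% held CCAAT and 13.6% held TATAAA. Of the 38 windows found for 35 of the collagen genes, 23, 13 and 5 held them, and these counts describe letters in a window and not sites in use. The windows of *Col4a1* and *Col4a2*, which are wider than the shared stretch, held both GGGCGG and CCAAT. That of *Col4a4* held none of these letters.

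The libraries held 18019819 to 24869454 counted reads, of which collagen genes took 0.152% to 0.204% in WT, 0.232% to 0.434% in RC/RC and 0.175% to 0.299% in RC/RC:*Casp1*KO mice. The edited gene was in keeping with its label in every mouse: *Casp1*, which encodes caspase-1, was at 1.29 to 2.06 CPM (counts scaled to library size) in WT, 2.62 to 4.26 CPM in RC/RC and 0.385 to 1.05 CPM in double mutant kidneys, with no overlap between groups. *Pkd1*, whose RC allele differs from the WT allele by a missense change that a gene count cannot see, was at 40.4 to 67.1 CPM, 46.7 to 67.0 CPM and 56.3 to 86.1 CPM in the same order.

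A pair of libraries stood apart from their groups in collagen share or fat markers. RC/RC mouse 139 had the highest collagen share of all mice and also the most fat marker RNA: *Adipoq*, *Plin1*, *Cidec* and *Lep*, genes of adipocytes, summed to 314 CPM there, led by *Cidec*, against 38.5 CPM in RC/RC mouse 143 and 0.162 to 16.6 CPM in the other 10 mice. RC/RC:*Casp1*KO mouse 70 had the highest collagen share of its group, with a fat marker sum of 0.591 CPM. The fat markers had too few reads for testing against WT, and 0 of the 3 tested in double mutants against RC/RC passed in edgeR's test, with 0 at an unadjusted p under 0.05. Over all genes, the WT libraries fell into mice 2 and 3 and mice 4 and 6: a chi-square per degree of freedom between libraries was 16.4 to 17.7 within these pairs and 89.8 to 127 across them. In the double mutants it was 31.8 between mice 42 and 70, 15.7 between mice 60 and Del3_105, and 67.1 to 93.4 across. The RC/RC mice did not fall into pairs in this way. It was 37.2 between mice 140 and 143 and 69.7 between mice RC105 and 139, against 67.6 to 128 across. WT mice 4 and 6 were above WT mice 2 and 3 in *Col4a3*, *Col4a4*, *Col4a5*, *Col7a1* and *Col27a1*. The same held for *Col12a1*, *Col16a1* and *Col20a1*, and this list is not complete. Several counts below are also given without RC/RC mouse 139 or double mutant mouse 70.

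Of the 44 collagen genes, 31 averaged at least 1 CPM over the 12 libraries and 13 did not. Enough reads for testing in all 3 comparisons were found for 33 genes, 5 were tested in 1 or 2 comparisons and 6 in none. The genes below 1 CPM had 0 to 242 reads over all libraries. *Col9a1*, a fibril-associated chain of cartilage, had 0 reads in every library, where 3 reads would have been 0.140 to 0.144 CPM as a group average, a floor that covers counting error only. Scaled by gene length and depth (FPKM, computed from the counts) and averaged over all mice, *Col4a1* was the most abundant at 52.6 FPKM, followed by *Col18a1* at 42.7 FPKM, *Col4a2* at 36.4 FPKM, *Col3a1* at 31.3 FPKM and *Col1a2* at 30.2 FPKM. The order differed between groups: *Col3a1* and *Col1a1* averaged 7.85 and 4.52 FPKM in WT, 65.0 and 39.0 FPKM in RC/RC and 21.2 and 11.1 FPKM in RC/RC:*Casp1*KO mice.

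The comparison of RC/RC with WT kidneys asks which collagens differ in the cystic kidney. Of 35 collagens tested, 13 rose in RC/RC kidneys and 0 fell at an adjusted p under 0.05 in edgeR's quasi-likelihood test, where 9.76% of all 15243 genes tested rose and 3.18% fell. Below, passing refers to this test unless another tool is named. These are transcript values in whole tissue, in which fewer cells of a type and less RNA per cell cannot be told apart. The median log2 fold change of the collagens was 0.57 against -0.02 for all genes. The genes that rose were 5 fibrillar chains, both tested chains of type VIII, the α1 and α2 chains of type VI, *Col12a1*, *Col15a1*, *Col17a1* and *Col26a1*. The 13 include *Col11a1* and *Col17a1*, which had at most 6 reads in any WT mouse and met the filter on low reads only through the RC/RC mice, and *Col8a2*, which had 7 to 18 reads in WT mice. Without RC/RC mouse 139 the count was 12, and without the 4 mice whose fat markers summed to over 10 CPM it was 11. Those 4 were RC/RC mice 139 and 143 and double mutant mice 42 and Del3_105. Wherever they are left out, 2 mice remain in each mutant group. At an unadjusted p under 0.05 there were 22, where 29.2% of all genes were under it: 19 were higher, and *Col4a3*, *Col4a4* and *Col24a1* were lower, the last with 3 to 12 reads in RC/RC mice and in the test only through the 10 to 26 reads of WT mice. The DESeq2 test called 17 higher and 2 lower (*Col4a3* and *Col4a4*), where 10.7% of all genes it tested were called higher and 5.46% lower.

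The comparison of RC/RC:*Casp1*KO with RC/RC kidneys asks what the loss of caspase-1 changes in the cystic kidney. Of 36 collagens tested, 6 fell, 3 rose and 27 did not pass, where 4.41% of all 15428 genes tested fell and 7.23% rose. The 6 that fell were *Col1a1*, *Col1a2*, *Col3a1*, *Col6a1*, *Col6a2* and *Col14a1*, and the 3 that rose were *Col27a1*, *Col4a3* and *Col4a4*. The median log2 fold change was -0.48 against -0.03 for all genes. At an unadjusted p under 0.05 there were 5 higher and 15 lower, where 31.7% of all genes were under it, and DESeq2 called 3 higher and 15 lower, where it called 9.61% and 7.71% of all genes. These counts depended on single mice. Without double mutant mouse 70, 13 collagens fell. Without RC/RC mouse 139, 3 fell, and the count was 9 without both. It was 1 without RC/RC mouse 140, 2 without double mutant mouse 60 and 3 without either of double mutant mice 42 and Del3_105. The count of 3 that rose was 1 without any of these 6 mice taken singly. With the 4 mice of highest fat markers left out, which leaves 2 mice in each of these groups, 0 collagens passed in either direction, and 0 of all genes did.

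RC/RC:*Casp1*KO and WT kidneys were also compared, to see where the collagens of the double mutant stood relative to the healthy kidney. Of 36 collagens tested, 1 rose and 0 fell, where 1.13% and 0.893% of all 15346 genes tested did so. The gene that rose was *Col11a1*, which had 2 to 5 reads in WT mice and passed the filter on low reads only through the double mutant mice. The median log2 fold change of the collagens was 0.37 against 0.01 for all genes. At an unadjusted p under 0.05 there were 10, where 21.8% of all genes were under it. DESeq2 called 6 higher and 0 lower, where it called 4.48% of all genes higher and 3.34% lower. The count of 1 became 0 without any 1 of the 4 WT mice, without double mutant mouse 70 or without mouse Del3_105 of that group, and 2 without mouse 42. The 3 comparisons share mice, so they are not independent of each other.

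**Figure D1:**
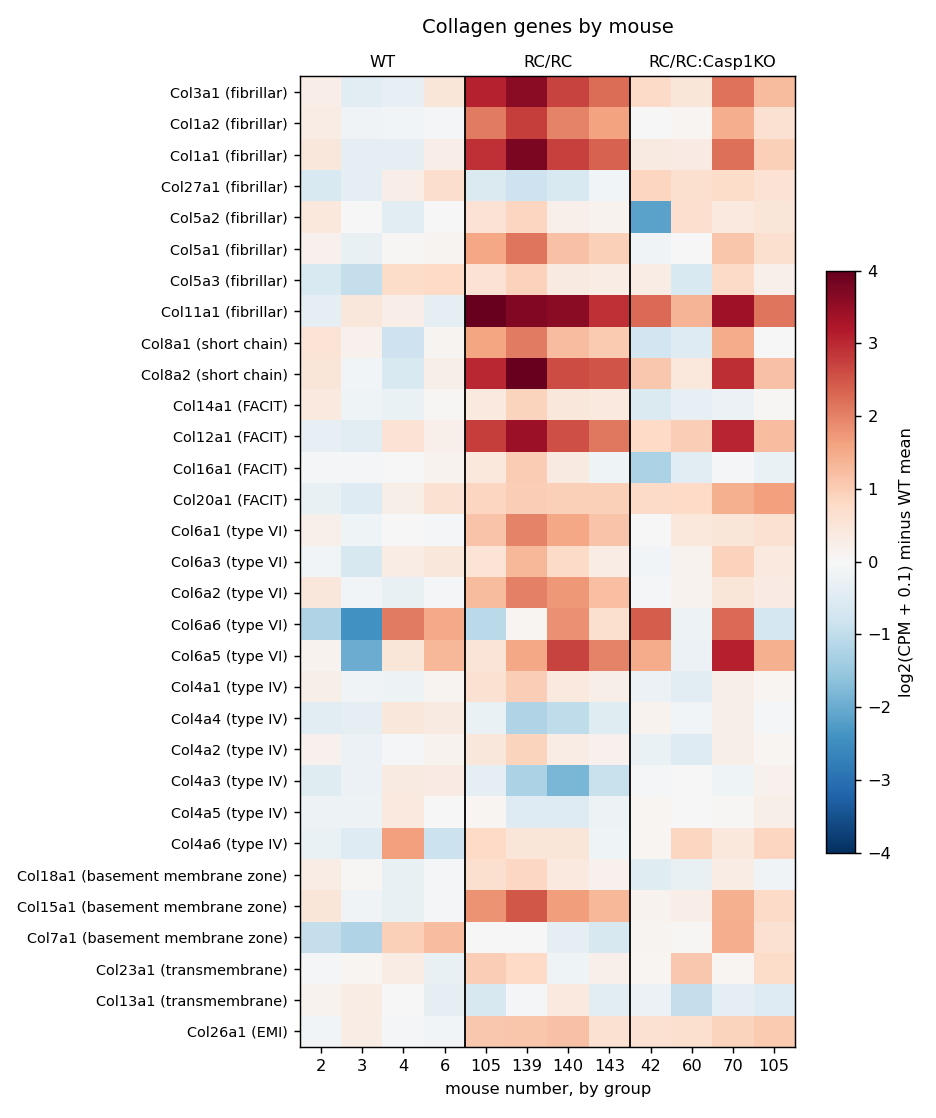
Heat map of the 31 collagen genes with a mean of at least 1 CPM (rows, grouped by class) in the 12 mice (columns, by group); colour gives log2(CPM + 0.1) minus the mean of the 4 WT mice. The strongest red lies in the fibrillar rows, *Col12a1* and *Col8a2* of RC/RC mice, mouse 70 is the reddest of the RC/RC:*Casp1*KO mice for *Col1a1*, *Col3a1*, *Col12a1* and *Col8a2*, and *Col4a3* and *Col4a4* are blue in RC/RC mice.

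Of 10 fibrillar chains tested in RC/RC against WT, 5 rose (median log2 fold change 0.98), and of 9 tested in the double mutants against RC/RC, 3 fell and 1 rose (median -1.04). The 5 include *Col11a1*, which entered that test only through the RC/RC mice, where it is high. The 10 include *Col24a1*, which entered it only through the WT mice. Of all genes 9.76% rose in the first comparison, and 4.41% fell and 7.23% rose in the second. Without RC/RC mouse 139 none of the fibrillar chains fell in double mutants in edgeR's test, and without mouse 70 of the double mutants 5 did. Types I and III, the bulk fibrillar collagens, were severalfold higher in RC/RC than in either other group. *Col1a1* (ENSMUSG00000001506, chr11:94936224-94953042), the α1 chain of type I, was at 37.2, 21.2, 21.5 and 32.8 CPM in WT mice 2, 3, 4 and 6. It was at 206, 375, 184 and 139.9 CPM in RC/RC mice RC105, 139, 140 and 143, and at 34.7, 34.0, 127 and 52.5 CPM in RC/RC:*Casp1*KO mice 42, 60, 70 and Del3_105. Every RC/RC mouse was above every mouse of the other groups, and double mutant mouse 70 was the nearest to them. The rise in RC/RC over WT was 3.00 ± 0.34 on the log2 scale (SE, adjusted p = 0.000806, edgeR), or 8.01-fold, and the double mutant kidneys fell by 1.87 ± 0.47 from the RC/RC level (adjusted p = 0.0367, edgeR).

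*Col1a2* (ENSMUSG00000029661, chr6:4504814-4541543), the α2 chain of the same protein, was at 82.3, 60.6, 61.7 and 65.3 CPM in WT mice. It was at 283, 453, 268 and 204 CPM in RC/RC and 66.6, 70.7, 183 and 102 CPM in RC/RC:*Casp1*KO mice, in the order of mice given above. Again no RC/RC value fell within another group. The log2 fold changes were 2.16 ± 0.24 for RC/RC against WT (adjusted p = 0.000809, edgeR) and -1.51 ± 0.36 for double mutants against RC/RC (adjusted p = 0.0307, edgeR). *Col3a1* (ENSMUSG00000026043, chr1:45311538-45349706), which forms type III collagen from a single kind of chain, was at 53.2, 32.9, 35.4 and 62.4 CPM in WT mice. It was at 376, 539, 288 and 208 CPM in RC/RC and 74.8, 62.7, 201 and 106 CPM in double mutant mice. All 3 groups were separate for this gene. It rose by 2.93 ± 0.33 in RC/RC kidneys (adjusted p = 0.000844, edgeR) and fell by 1.66 ± 0.40 in double mutant kidneys relative to RC/RC (adjusted p = 0.0335, edgeR).

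The rises of these 3 genes in RC/RC over WT passed with any single mouse left out. Their falls in RC/RC:*Casp1*KO kidneys passed in 3 of 8 such fits, and in the other 5 the adjusted p in edgeR was 0.0682 to 0.0987 with log2 fold changes of -1.96 to -1.23. Against WT, the double mutant kidneys had log2 fold changes of 1.15 ± 0.43 for *Col1a1*, 0.66 ± 0.31 for *Col1a2* and 1.29 ± 0.38 for *Col3a1*, with adjusted p of 0.176, 0.248 and 0.117 (edgeR), so none passed, while DESeq2 called *Col3a1* (adjusted p = 0.0107). *Col3a1* was nonetheless higher in all 4 double mutant than in all 4 WT mice.

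**Figure D2:**
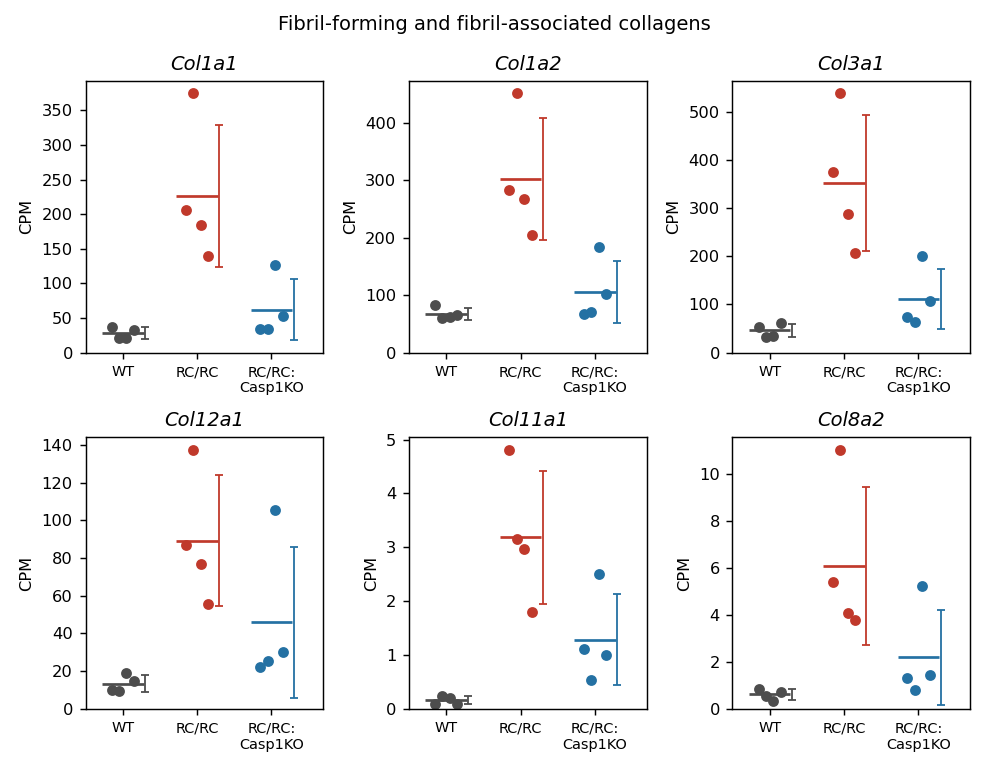
Levels in CPM (linear axes from 0) of 6 fibril-forming, fibril-associated or short chain collagens by mouse; points are mice, horizontal lines are group means and vertical bars are 1 SD (n = 4). In each panel all RC/RC points lie above all WT points, and 1 RC/RC:*Casp1*KO point, mouse 70, lies above the other 3.

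The minor fibrillar chains, which assemble with types I and III and control fibril width, were more varied. *Col11a1* (ENSMUSG00000027966, chr3:114030540-114220718), an α chain of type XI, was at 0.0957, 0.239, 0.200 and 0.0937 CPM in WT mice, from 2 to 5 reads each, and at 4.81, 3.16, 2.97 and 1.80 CPM in RC/RC mice. It entered the tests against WT only through the mutant groups, where it is high, and drops out of them when at least 10 reads are required in every library. It was at 1.11, 0.539, 2.50 and 0.996 CPM in RC/RC:*Casp1*KO mice, which were all above WT. The rise was 4.29 ± 0.44 on the log2 scale in RC/RC (adjusted p = 0.000575, edgeR) and 3.00 ± 0.58 in double mutant kidneys over WT (adjusted p = 0.0412, edgeR). The second of these passed in 2 of the 8 fits that left out 1 mouse. It did not pass with limma (adjusted p = 0.17) or without the 4 mice of highest fat markers (adjusted p = 0.143, edgeR), a fit with 2 double mutant mice. The difference between double mutants and RC/RC did not pass (-1.30 ± 0.46, adjusted p = 0.0913, edgeR). It did with DESeq2 (adjusted p = 0.0332) and without mouse 70 (-1.86, adjusted p = 0.0277, edgeR).

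*Col5a1*, a type V chain that nucleates fibrils, rose by 1.51 ± 0.25 in RC/RC over WT (adjusted p = 0.00475, edgeR), from 12.7 to 17.5 CPM in WT to 30.2 to 68.6 CPM. Between RC/RC:*Casp1*KO mice and RC/RC its log2 fold change was -1.04 ± 0.32 (adjusted p = 0.0643, edgeR), which passed with DESeq2, in the fit of 12 libraries and without mouse 70 (adjusted p of 0.0131, 0.0427 and 0.0353). Its partner chains did not pass in RC/RC against WT: *Col5a2* had 0.44 ± 0.20 and *Col5a3* 0.36 ± 0.40. *Col5a2* was at 60.5, 49.4 and 52.7 CPM in double mutant mice 60, 70 and Del3_105 and at 8.42 CPM in mouse 42, so its fold change of -0.29 ± 0.47 against RC/RC rested on that mouse and was 0.05 without it.

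*Col27a1* (ENSMUSG00000045672, chr4:63214004-63334991), a fibrillar collagen best known from cartilage, went the other way from types I and III in the double mutants. It was at 43.1, 49.5, 79.3 and 107 CPM in WT mice, 43.2, 36.6, 43.0 and 61.1 CPM in RC/RC and 118, 101, 109 and 97.9 CPM in RC/RC:*Casp1*KO mice. The RC/RC and double mutant mice did not overlap, while WT mice 2 and 3 lay among the former. It rose by 1.21 ± 0.16 in double mutant over RC/RC kidneys (adjusted p = 0.00482, edgeR), the largest increase of a collagen in that comparison, and passed with each of the 8 mice left out in turn. It did not pass against WT in RC/RC (-0.61 ± 0.29) or in double mutant kidneys (0.62 ± 0.26). The cartilage and bone markers *Acan*, *Matn1*, *Ibsp* and *Bglap* summed to at most 0.166 CPM in any mouse.

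Type IV collagen, the basement membrane network, held the most collagen transcript per length in WT kidneys. None of its 6 genes passed in edgeR's test of RC/RC against WT (median log2 fold change -0.13), with 4 at an unadjusted p under 0.05, as had 29.2% of all genes. DESeq2 called 1 higher (*Col4a1*) and 2 lower (*Col4a3* and *Col4a4*), and of all genes 10.7% higher and 5.46% lower. In the double mutants over RC/RC 2 rose in edgeR's test (median 0.27), where 7.23% of all genes rose, and 0 did without RC/RC mouse 139 or without mouse 70. *Col4a1* (ENSMUSG00000031502) was at 349, 274, 262 and 319.5 CPM in WT mice, 453, 592, 391 and 354 CPM in RC/RC mice and 255, 225, 354 and 317 CPM in RC/RC:*Casp1*KO mice. *Col4a2* (ENSMUSG00000031503), its partner chain, was at 237, 176, 200.2 and 229 CPM in WT mice, 289, 388, 260 and 235 CPM in RC/RC and 175, 147, 248 and 219 CPM in double mutant mice. RC/RC mice were above all WT mice for *Col4a1*, while for *Col4a2* WT mouse 2 was above RC/RC mouse 143. Double mutant mouse 70 was above RC/RC mouse 143 in both genes, the other 3 double mutant mice below all RC/RC mice. The log2 fold changes in RC/RC over WT were 0.57 ± 0.18 and 0.47 ± 0.18 (adjusted p of 0.0757 and 0.121, edgeR), and in double mutants against RC/RC they were -0.63 ± 0.20 and -0.57 ± 0.21 (adjusted p of 0.0691 and 0.0989, edgeR). DESeq2 called *Col4a1* in both comparisons (adjusted p of 0.03 and 0.0192) and *Col4a2* in the second (adjusted p = 0.0485), and *Col4a1* also passed there in the fit of 12 libraries (adjusted p = 0.0492). In RC/RC over WT *Col4a1* also passed without RC/RC mouse 143 (0.66, adjusted p = 0.0427, edgeR).

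The chains of the mature glomerular network lay in the opposite order. *Col4a3* (ENSMUSG00000079465) was at 185, 219, 332 and 320.3 CPM in WT mice, 196, 106, 72.7 and 139 CPM in RC/RC and 246, 259, 229 and 289 CPM in RC/RC:*Casp1*KO mice. Its RC/RC values were all below those of double mutant mice, and only RC/RC mouse RC105 reached into the WT range. *Col4a4* (ENSMUSG00000067158) was at 234, 245, 434 and 409 CPM in WT mice, 264, 138, 156 and 227 CPM in RC/RC and 349, 295, 373 and 303 CPM in double mutant mice. It too did not overlap between the RC/RC and double mutant groups.

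Against WT the RC/RC kidneys had log2 fold changes of -1.05 ± 0.31 for *Col4a3* and -0.76 ± 0.28 for *Col4a4* (adjusted p of 0.0531 and 0.104, edgeR), which did not pass. *Col4a3* did pass with DESeq2, RLE factors, all genes of at least 1 count and a fit of all 12 libraries (adjusted p of 0.00439, 0.0492, 0.0443 and 0.0212), and without WT mouse 2 or RC/RC mouse RC105 (adjusted p of 0.0442 and 0.0249, edgeR). *Col4a4* passed with DESeq2 (adjusted p = 0.0321). In RC/RC:*Casp1*KO over RC/RC kidneys both rose, by 1.00 ± 0.26 and 0.75 ± 0.21 (adjusted p of 0.0399 and 0.0469, edgeR). These calls were close to the threshold: with 1 mouse left out, *Col4a3* passed in 1 of 8 fits and *Col4a4* in 2 of 8, with log2 fold changes between 0.80 and 1.05 for *Col4a3* and between 0.64 and 0.81 for *Col4a4* in the fits that did not pass. *Col4a4* also did not pass with library size alone, all genes of at least 1 count and the fit of 12 libraries (adjusted p of 0.0578, 0.0502 and 0.0587, edgeR), nor did *Col4a3* with library size alone (adjusted p = 0.0608, edgeR). In double mutant and WT kidneys the 2 genes overlapped, at group means of 256 ± 25.5 and 264 ± 73.2 CPM for *Col4a3* and 330.1 ± 37.3 and 331 ± 105.4 CPM for *Col4a4* (SD, n = 4). The WT values of both genes split between mice 2 and 3 and mice 4 and 6, as the WT libraries did over all genes.

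*Col4a5* (ENSMUSG00000031274, chrX:141475385-141689234), the X-linked partner chain of the mature network, was at 47.8, 48.4, 73.1 and 56.3 CPM in WT mice, 59.0, 38.9, 39.1 and 48.1 CPM in RC/RC and 58.2, 56.1, 57.9 and 65.9 CPM in RC/RC:*Casp1*KO mice. Its log2 fold changes were -0.30 ± 0.18 and 0.36 ± 0.14 in RC/RC against WT and double mutants against RC/RC (adjusted p of 0.304 and 0.109, edgeR). *Col4a6* (ENSMUSG00000031273, chrX:141165403-141474076), a chain of few kidney basement membranes, was at 3.44, 2.92, 13.3 and 2.25 CPM in WT mice, 7.29, 5.89, 5.88 and 3.69 CPM in RC/RC and 4.43, 7.73, 5.68 and 7.64 CPM in double mutant mice. The groups overlapped for both genes, and WT mouse 4 alone was high for *Col4a6*.

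**Figure D3:**
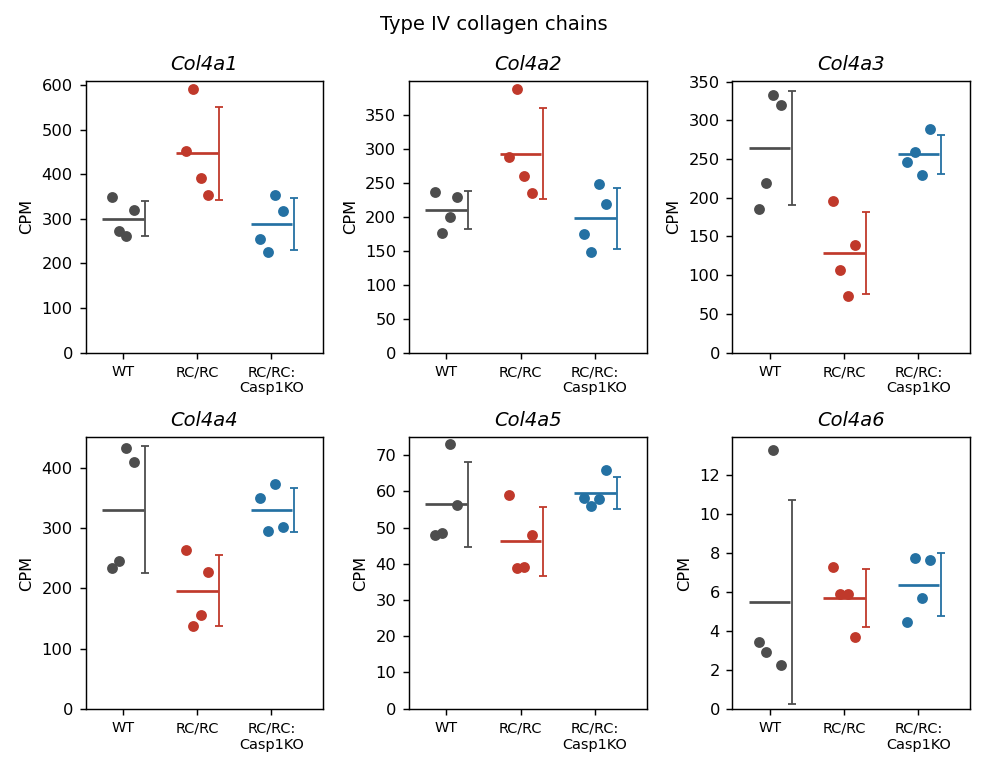
Levels in CPM (linear axes from 0) of the 6 type IV collagen genes by mouse; points are mice, lines are group means and bars are 1 SD (n = 4). RC/RC means are the highest for *Col4a1* and *Col4a2* and the lowest for *Col4a3*, *Col4a4* and *Col4a5*, and WT mouse 4, at 13.3 CPM, sets the spread of *Col4a6*.

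Ratios within a library do not depend on depth, and 3 chain ratios per length were compared by exact two-sided permutation tests of log2 ratios, with p-values adjusted over the 9 tests. With 4 mice against 4 the smallest p is 0.0286, so a single test at that p could not pass once adjusted over 9. For *Col1a1* to *Col1a2*, whose protein holds more α1 than α2 chains, the ratio was 0.372 ± 0.069 in WT, 0.660 ± 0.060 in RC/RC and 0.497 ± 0.085 in RC/RC:*Casp1*KO mice (SD, n = 4). RC/RC and WT mice did not overlap (exact permutation p = 0.0286, adjusted p = 0.0857), while double mutant mouse 70, at 0.622, lay among the RC/RC mice.

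For *Col4a1* to *Col4a2* the ratio was 1.40 ± 0.10 in WT, 1.49 ± 0.029 in RC/RC and 1.43 ± 0.043 in RC/RC:*Casp1*KO mice (SD, n = 4), and all 12 mice lay between 1.28 and 1.53. The groups overlapped in all comparisons, with exact permutation p of 0.143, 0.114 and 0.571. The levels of the genes of this head-to-head pair ranged from 225 to 592 CPM and from 147 to 388 CPM. For *Col4a3* to *Col4a1*, the mature against the general network, the ratio was 0.697 ± 0.241 in WT, 0.230 ± 0.104 in RC/RC and 0.710 ± 0.161 in double mutant mice (SD, n = 4). The RC/RC mice, at 0.139 to 0.335, overlapped neither WT mice (0.411 to 0.980) nor double mutant mice (0.4998 to 0.890), each with exact permutation p = 0.0286 and adjusted p = 0.0857. Double mutant and WT mice overlapped (exact permutation p = 0.83).

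Next to the epithelial basement membrane lie *Col15a1* and *Col18a1*, multiplexins that link it to the interstitium, and *Col7a1*, the anchoring fibril collagen. *Col15a1* rose by 1.86 ± 0.26 in RC/RC over WT (adjusted p = 0.00258, edgeR), from 32.6 to 55.7 CPM in WT to 99.9 to 224 CPM. In RC/RC:*Casp1*KO mice it was at 44.4, 48.2, 107 and 68.3 CPM, and its log2 fold change of -1.14 ± 0.32 against RC/RC missed the threshold (adjusted p = 0.0503, edgeR). It passed with DESeq2, with all genes of at least 1 count and in the fit of 12 libraries (adjusted p of 0.00488, 0.0481 and 0.0384). It also passed without RC/RC mouse 143, without mouse 70 and without mouse 70 and RC/RC mouse 139 together (adjusted p of 0.0404, 0.0218 and 0.0247, edgeR). *Col18a1*, the more abundant of the pair, was at 242 ± 40.1 CPM in WT, 345 ± 65.5 CPM in RC/RC and 219 ± 53.8 CPM in double mutant mice (SD, n = 4) and did not pass (0.51 ± 0.17 and -0.66 ± 0.20, adjusted p of 0.0886 and 0.059, edgeR), although DESeq2 called it in both comparisons (adjusted p of 0.0467 and 0.0135). Without RC/RC mouse 143 it passed in both as well (adjusted p of 0.0451 and 0.0466, edgeR), and in the second it also passed in the fit of 12 libraries and without mouse 70 (adjusted p of 0.0474 and 0.0278, edgeR). Of this class of 3 genes, 1 rose in RC/RC over WT, where 9.76% of all genes rose. In double mutants against RC/RC 0 of the 3 passed with all mice, where 4.41% of all genes fell and 7.23% rose. Without mouse 70, 2 of them fell. The span of *Col18a1* overlaps *Slc19a1* on the other strand, and whether the counting used strand is not given in the sources used here. *Col7a1* was at 1.10 to 6.42 CPM in WT, 1.68 to 2.71 CPM in RC/RC and 2.81 to 7.50 CPM in double mutant mice and did not pass in any comparison in edgeR's test.

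Type VI collagen forms beaded filaments around cells from α1, α2 and a larger chain. *Col6a1* rose by 1.48 ± 0.20 and *Col6a2* by 1.56 ± 0.22 in RC/RC over WT (adjusted p of 0.00203 and 0.00267, edgeR). They fell by 1.10 ± 0.21 and by 1.36 ± 0.20 in RC/RC:*Casp1*KO relative to RC/RC (adjusted p of 0.017 and 0.00695, edgeR). *Col6a1* was at 23.3 to 30.5 CPM in WT, 57.9 to 104 CPM in RC/RC and 26.5 to 40.4 CPM in double mutant mice, and *Col6a2* at 13.8 to 23.5, 39.2 to 68.5 and 16.1 to 23.6 CPM. For both genes the RC/RC mice were above all others, mouse 70 included, and their falls passed in 7 of 8 and 8 of 8 fits with 1 mouse left out. The main larger chain, *Col6a3*, had 0.71 ± 0.28 and -0.39 ± 0.26 in the same comparisons and passed in neither. Its alternatives *Col6a5* and *Col6a6* were at 0 to 3.27 CPM and 0.0479 to 4.10 CPM and passed in none.

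The fibril-associated (FACIT) collagens sit on the surface of fibrils. *Col12a1*, which is tied to tendon and to tissues under load, rose by 2.74 ± 0.32 in RC/RC over WT (adjusted p = 0.00104, edgeR), from 9.43 to 19.0 CPM to 55.7 to 138 CPM. In RC/RC:*Casp1*KO mice it was at 22.4, 25.4, 106 and 30.1 CPM, so 3 mice were below all RC/RC mice and mouse 70 was among them. Its log2 fold change against RC/RC was -0.96 ± 0.50 (adjusted p = 0.22, edgeR), and without mouse 70 it was -1.78 (adjusted p = 0.013, edgeR). *Col14a1* was at 55.7 to 87.5 CPM in WT mice, 88.1, 124, 92.6 and 88.2 CPM in RC/RC and 44.8 to 68.6 CPM in double mutant mice. It fell by 0.81 ± 0.16 in double mutants relative to RC/RC (adjusted p = 0.0191, edgeR), but did not pass without RC/RC mouse 140 or double mutant mouse 60 (adjusted p of 0.0513 and 0.0582, edgeR), nor without mouse 70 and RC/RC mouse 139 together (-0.64, adjusted p = 0.0676, edgeR). Its log2 fold change of 0.53 ± 0.17 in RC/RC over WT did not pass with all mice (adjusted p = 0.0769, edgeR) but did without WT mouse 2 (0.66, adjusted p = 0.0351, edgeR). *Col16a1*, at 20.5 to 23.9 CPM in WT, 19.5 to 44.0 CPM in RC/RC and 8.97 to 20.5 CPM in double mutants, did not pass in any comparison in edgeR's test of all mice. In double mutants against RC/RC it did pass with DESeq2, in the fit of 12 libraries and without RC/RC mouse 143 (adjusted p of 0.0158, 0.0396 and 0.038). Without that mouse it also passed in RC/RC over WT (0.62, adjusted p = 0.0435, edgeR). *Col20a1* passed in no comparison in edgeR's test of all mice but did in RC/RC over WT with DESeq2 and limma (adjusted p of 0.0368 and 0.0393). It also passed there without WT mouse 6 (1.16, adjusted p = 0.0467, edgeR). It was lower in all WT mice (0.862 to 1.97 CPM) than in all RC/RC (2.37 to 2.63 CPM) and double mutant mice (2.22 to 4.13 CPM), and its span overlaps a transcript on the same strand with more reads.

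Type VIII, a short chain collagen that forms hexagonal nets around vessels, rose in RC/RC kidneys with both of its chains. *Col8a2* was at 0.861, 0.527, 0.350 and 0.703 CPM in WT mice, 5.43, 11.0, 4.10 and 3.78 CPM in RC/RC and 1.33, 0.808, 5.23 and 1.42 CPM in RC/RC:*Casp1*KO mice. All RC/RC mice were above all WT mice, and mouse 70 was again the only double mutant mouse at the RC/RC level. Its rise over WT was 3.30 ± 0.44 (adjusted p = 0.00195, edgeR), and that of *Col8a1* was 1.46 ± 0.30 (adjusted p = 0.0133, edgeR). *Col8a2* had 7 to 18 reads in WT mice, which alone would not have met the filter on low reads, and drops out when at least 10 are required in every library. *Col8a1* did not pass without the 4 mice of highest fat markers (1.33, adjusted p = 0.0541, edgeR), a fit with 2 RC/RC mice. Neither passed in double mutants against RC/RC, at -1.47 ± 0.59 and -1.20 ± 0.47 (adjusted p of 0.124 and 0.119, edgeR). Both fell without mouse 70, at -2.36 and -1.94 (adjusted p of 0.0199 and 0.0107, edgeR), and in DESeq2's test of all 8 mice (adjusted p of 0.0438 and 0.04).

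Among the remaining collagens, *Col17a1*, the membrane collagen of hemidesmosomes, rose by 1.93 ± 0.43 in RC/RC over WT at a level of 0.540 to 1.20 CPM against 0.0957 to 0.300 CPM (adjusted p = 0.0179, edgeR). These levels rest on 10 to 31 reads in RC/RC mice, through which alone it entered the test, and 2 to 6 in WT mice. *Col17a1* did not pass with limma or without the 4 mice of highest fat markers (adjusted p of 0.137 and 0.0974), the latter a fit with 2 RC/RC mice. Nor did it pass without RC/RC mouse 139 or WT mouse 6 (adjusted p of 0.0515 and 0.062, edgeR). *Col26a1*, the only member with an EMI domain, rose by 1.01 ± 0.19 (adjusted p = 0.00829, edgeR), from 3.59 to 4.79 CPM to 6.06 to 9.01 CPM. It stayed above WT in every RC/RC:*Casp1*KO mouse, at 6.04 to 8.21 CPM (0.82 ± 0.17, adjusted p = 0.0517, edgeR), a difference that passed with DESeq2, library size alone, the fit of 12 libraries and limma (adjusted p of 0.00198, 0.0393, 0.0377 and 0.0411). The membrane collagens *Col13a1* and *Col23a1* were at 0.885 to 2.43 CPM and 4.97 to 13.1 CPM and passed in no comparison.

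**Figure D4:**
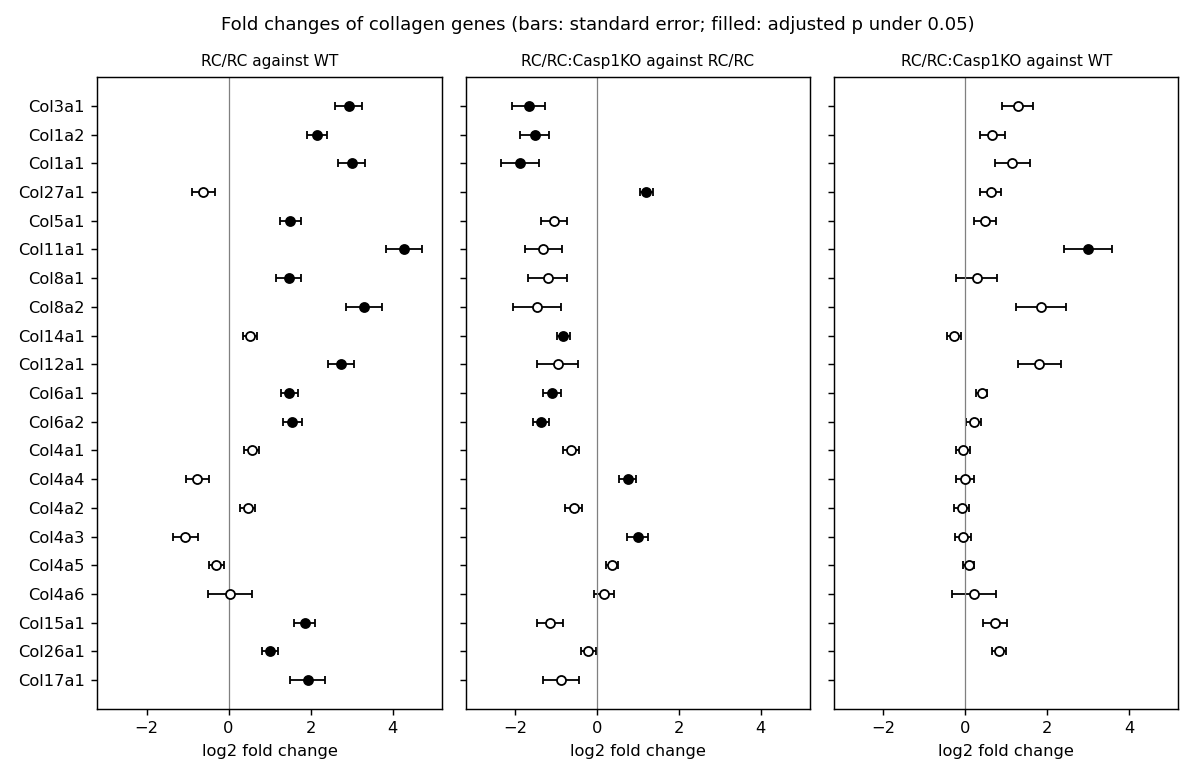
Log2 fold changes (points, horizontal axis) with standard errors (bars) for the 17 collagen genes that passed in any comparison and the type IV genes, in the 3 comparisons (panels); filled points passed at an adjusted p under 0.05 and open points did not. The first panel has 13 filled points, all to the right of 0, the second has 6 to the left and 3 to the right, and the third has 1.

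Summed over all members and scaled by length, collagen transcript came to 263 ± 28.8 FPKM in WT, 505 ± 153 FPKM in RC/RC and 327 ± 88.4 FPKM in RC/RC:*Casp1*KO mice (SD, n = 4). The fibrillar class made up 41.4 ± 7.41 FPKM of this in WT, 183 ± 74.6 FPKM in RC/RC and 78.7 ± 35.8 FPKM in double mutant mice. Type IV came to 144 ± 21.5, 158 ± 35.0 and 154 ± 24.5 FPKM in the same order. As a share of collagen FPKM, type IV was 54.5% ± 4.43 in WT, 32.0% ± 4.02 in RC/RC and 48.0% ± 5.63 in double mutant mice, and fibrillar collagen was 15.7% ± 1.38, 35.5% ± 3.67 and 23.3% ± 4.07 (SD, n = 4). On group means the fibrillar class thus reached the level of type IV in RC/RC mice. In mouse 143 it stayed below type IV, at 113 against 131 FPKM. It was above type IV in mouse RC105 (188 against 184 FPKM), mouse 139 (285 against 192 FPKM) and mouse 140 (145 against 125 FPKM). The fibrillar and type IV shares of RC/RC mice overlapped neither of the other groups, and the sums of type IV overlapped in all groups.

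**Figure D5:**
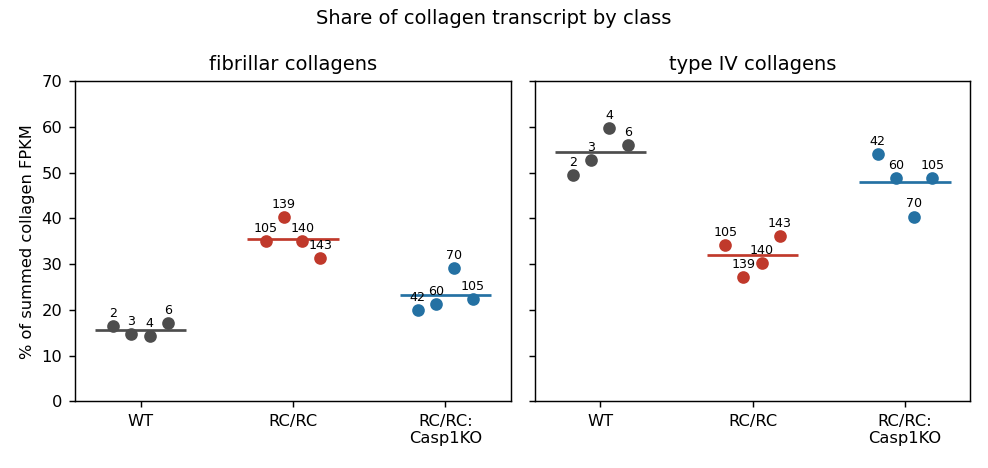
Share of summed collagen FPKM held by the fibrillar and the type IV genes in each mouse (points, with mouse numbers; lines are group means; axis in percent from 0). Fibrillar shares are 31.4% to 40.3% in RC/RC mice and 29.2% or lower in all others, and type IV shares are 27.2% to 36.2% in RC/RC mice and 40.4% or higher in all others.

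Collagen chains are hydroxylated, folded, trimmed and cross-linked by a set of enzymes and chaperones, of which 31 genes were examined and 30 tested. This list and those of receptors, fibril partners and cell markers below were chosen with earlier results of these data known. Their counts beside those of all genes describe the lists and do not test them. In RC/RC over WT 9 of the 30 genes rose and 0 fell (median log2 fold change 0.31), where 9.76% of all genes rose and 3.18% fell. The counts were 5 and 1 without RC/RC mouse 139. The largest rises were those of *Lox*, the cross-linking lysyl oxidase (2.65 ± 0.28), *Adamts2*, which trims procollagen (2.60 ± 0.29), and *Fkbp10*, an endoplasmic reticulum chaperone of procollagen (1.56 ± 0.29), with adjusted p of 0.000603, 0.000742 and 0.00895 (edgeR). *Lox* was at 3.21 to 5.15 CPM in WT, 16.0 to 39.0 CPM in RC/RC and 4.93, 5.62, 18.4 and 8.25 CPM in RC/RC:*Casp1*KO mice. In double mutants relative to RC/RC 5 fell and 0 rose, where 4.41% and 7.23% of all genes did so. The count of 5 was 2 without RC/RC mouse 139 and 4 without mouse 70 of the double mutants. The median was -0.32, and the 5 were *Adamts2* (-1.74 ± 0.39), *Lox* (-1.54 ± 0.42), *Loxl1* (-1.43 ± 0.28), *Loxl2* and *Serpinh1*. *Loxl4*, another lysyl oxidase, was the 1 gene that passed against WT in double mutant kidneys, where it fell by 0.95 ± 0.20 on the log2 scale (adjusted p = 0.0485, edgeR) and 0.893% of all genes fell. Without mouse 70 of the double mutants 0 of the list passed there in edgeR's test.

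Of 10 collagen receptor genes, 9 were tested, and 4 rose and 0 fell in RC/RC over WT (median log2 fold change 0.26), where 9.76% and 3.18% of all genes did so. The largest were *Itga11*, an integrin chain that binds fibrillar collagen (2.40 ± 0.54), *Ddr2*, a receptor kinase for fibrillar collagen (1.62 ± 0.27), and *Lair1*, an inhibitory receptor of leukocytes (1.21 ± 0.29). None passed in RC/RC:*Casp1*KO against RC/RC or against WT, while 5 and 3 had an unadjusted p under 0.05 in edgeR's test, as had 31.7% and 21.8% of all genes. The 12 proteins that bind or space fibrils were likewise listed with earlier results known. Of them 10 rose in RC/RC over WT (median 1.80), against 9.76% of all genes, led by *Dcn*, the proteoglycan decorin (2.47 ± 0.24), *Thbs2* (2.42 ± 0.31) and *Postn* (2.39 ± 0.49). In double mutants relative to RC/RC 7 of the 12 fell (median -1.10), against 4.41% of all genes, led by *Lum* (-1.74 ± 0.43), *Sparc* (-1.50 ± 0.32) and *Dcn* (-1.46 ± 0.23). Without RC/RC mouse 139 these counts were 8 and 3. *Dcn* alone also passed against WT in double mutant kidneys, where 1.13% of all genes rose, at 51.5 to 73.8 CPM against 27.1 to 34.8 CPM (1.02 ± 0.13, adjusted p = 0.00799, edgeR).

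Markers of several cell types moved with these groups. The fibroblast and pericyte markers were *Pdgfra*, *Pdgfrb*, *Dpt*, *Pi16*, *Mfap5*, *Acta2* and *Tagln*. Of these, *Acta2* and *Tagln* were counted here and not among the smooth muscle markers. All 7 markers rose in RC/RC over WT and 3 fell in RC/RC:*Casp1*KO relative to RC/RC, where 9.76% of all genes rose and 4.41% fell. Without RC/RC mouse 139 the rises numbered 6, and without mouse 70 the falls numbered 5. Their sum, led by *Pdgfrb*, was 173 to 216 CPM in WT mice, 374, 747, 427 and 302 CPM in RC/RC and 173, 183, 242 and 212 CPM in double mutant mice. RC/RC mouse 139 was the highest in this sum as in *Col1a1*, and mouse 70 led its group. Of 5 macrophage and leukocyte markers, 4 rose in RC/RC over WT, against 9.76% of all genes, and their sum, led by *Csf1r*, was 112 to 126 CPM in WT, 196 to 289 CPM in RC/RC and 137, 190.0, 264 and 180.1 CPM in double mutant mice, mouse 70 being the highest of its group. *C1qa*, a complement chain of macrophages, fell in double mutants relative to RC/RC (-1.22 ± 0.34, adjusted p = 0.0492, edgeR). Of these markers 0 fell without RC/RC mouse 139 and 3 did without mouse 70. Of the 4 smooth muscle markers, *Myh11*, *Des*, *Actg2* and *Cnn1*, 0 passed in RC/RC against WT, where 9.76% of all genes rose and 3.18% fell. *Des* fell in double mutants relative to RC/RC, against 4.41% of all genes. The sum of the 4, led by *Myh11*, was 153 CPM in RC/RC mouse 139 and 43.0 to 79.1 CPM in all others. The part of these cells in the collagen values was not tested.

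Podocytes, known as the source of the α3 and α4 chains of type IV in the glomerulus, were followed by 5 markers found in the table. *Nphs1*, the slit diaphragm protein nephrin, fell by 0.62 ± 0.16 in RC/RC relative to WT (adjusted p = 0.0372, edgeR) and the other 4 did not pass, where 3.18% of all genes fell. Their sum, led by *Podxl*, was 405 to 651 CPM in WT, 408 to 582 CPM in RC/RC and 381 to 482 CPM in RC/RC:*Casp1*KO mice, so the groups overlapped. In double mutants against RC/RC, where *Col4a3* and *Col4a4* rose, 0 of the 5 passed and 2 had an unadjusted p under 0.05 in edgeR's test, as had 31.7% of all genes. Of 7 tubule markers, *Slc12a3*, the thiazide-sensitive cotransporter, fell in RC/RC relative to WT (-2.03 ± 0.33), and *Lrp2*, the proximal tubule receptor megalin, and *Slc12a3* rose in double mutant over RC/RC kidneys (1.52 ± 0.28 and 1.44 ± 0.39), 1 of which passed without RC/RC mouse 139 and 1 without mouse 70. Of all genes 3.18% fell in the first of these comparisons and 7.23% rose in the second. In the first, 6 of the 7 log2 fold changes were below 0 and 1 was above it, at 1.05. There 6 had an unadjusted p under 0.05 in edgeR's test, as had 29.2% of all genes. In the second, 6 were above 0 and 1 was below it, at -0.62. There 4 had an unadjusted p under 0.05 in the same test, as had 31.7% of all genes. The tubule sum, led by *Slc34a1*, was 6884 to 11327 CPM in RC/RC and 12514 to 16236 CPM in all other mice, and its part in the type IV values was not tested. None of the 5 endothelial or 5 urothelial markers passed in any comparison in edgeR's test, and at an unadjusted p under 0.05 there were 3, 4 and 0 endothelial and 0 urothelial genes in the 3 comparisons, where 29.2%, 31.7% and 21.8% of all genes were under it. The endothelial sum, led by *Kdr*, was 327 to 405 CPM in WT, 402 to 560 CPM in RC/RC and 321 to 400.0 CPM in double mutant mice. The urothelial sum, led by *Upk1a*, was 7.51, 7.85, 35.1 and 2.30 CPM in WT mice 2, 3, 4 and 6. It was 7.82 to 32.2 CPM in RC/RC mice, highest in mouse 139, and 8.95 to 19.2 CPM in double mutant mice.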

How the data were processed

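RNA of kidney tissue from 12 mice was sequenced after poly(A) selection. The submitters' processing notes name CASAVA 1.8, STAR and the mm10 build, and the counting tool, annotation and strand setting are not given in the sources used here. The authors deposited raw read counts per gene, used here as they stand. The 12 other per-sample columns, which hold FPKM, and the authors' fold change and p-value columns were not used. FPKM was computed from counts, gene length and counted reads.

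Counts were tested with edgeR 4.0.16 in R 4.3.3 (TMM, filterByExpr, quasi-likelihood, 8 mice per comparison), with Benjamini-Hochberg adjustment over all genes tested. CPM used TMM factors of all 12 libraries. The fits were tested on simulated data. Alternatives were DESeq2 1.42.0, limma 3.58.1 on log2(FPKM + 1), other scalings and filters, and leaving out mice. Ratios used exact permutation tests.

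Every collagen averaging at least 1 CPM was named, and types I, III and IV and the 3 largest changes per comparison were given by mouse. List genes were named among the 3 largest changes of their list, or as a whole list. *Loxl2* and *Serpinh1* were named after their values were seen. Members and lists were chosen with earlier results of these data known. The lists covered collagen maturation, receptors, fibril partners and cell markers, of which *Magi2* was not matched. Of the collagens, 15 overlap another annotated gene, and in 5 the overlapping genes held over 10% as many reads as the collagen.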

Additional observations from a re-analysis of the deposited data

Results flagged for a closer look

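In 129 sets of 4 mice (each named collagen, class sum or ratio of 2 chains in a group), the gap between an extreme mouse and its neighbour was compared with the range of the set; 5 exceeded Dixon's limit, and about 1 in 20 would do so by chance. *Col12a1* was at 106 CPM in RC/RC:*Casp1*KO mouse 70, far above the other 3 mice of that group. *Col8a2* was at 5.23 CPM in the same mouse. *Col14a1* was at 124 CPM in RC/RC mouse 139. *Col4a6* was at 13.3 CPM in WT mouse 4. The summed FPKM of the EMI domain class, which holds *Col26a1* alone, was 2.09 in RC/RC mouse 143, the lowest of its group.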

How the results depend on the processing

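No paired analysis was possible because the columns carry mouse numbers that are not replicate numbers shared between groups. Collagens called higher in RC/RC over WT numbered 10 to 17 under every alternative. Collagens called lower there numbered 0, but 2 with DESeq2, 1 with RLE factors, 1 with all genes of at least 1 count and 1 with a fit of all 12 libraries (*Col4a3* in each, with *Col4a4* in DESeq2); with 1 mouse left out they numbered 0 to 1. In RC/RC:*Casp1*KO against RC/RC, the 3 called higher became 1 with library size alone, 2 with all genes of at least 1 count, 2 with the fit of all 12 libraries, 0 without the 4 mice of highest fat markers and 1 without RC/RC mouse 139 and RC/RC:*Casp1*KO mouse 70, and ranged from 1 to 4 with 1 mouse left out. The 6 called lower became 15 with DESeq2, 3 with library size alone, 11 with the fit of all 12 libraries and 0 without the 4 mice, and ranged from 1 to 13 with 1 mouse left out. *Col15a1* was also called lower with all genes of at least 1 count (adjusted p = 0.0481, edgeR). The count without RC/RC mouse 139 and RC/RC:*Casp1*KO mouse 70 together moved as well and is given above. In RC/RC:*Casp1*KO against WT, the 1 called higher became 6 with DESeq2, 2 with library size alone, 0 with at least 10 counts in every library, 2 with the fit of all 12 libraries and 0 without the 4 mice, and ranged from 0 to 2 with 1 mouse left out. The limit of 10 CPM for fat markers, the leaving out of 2 mice together and the counts per class and list without 1 mouse were chosen after seeing the data. In RC/RC:*Casp1*KO against WT, the log2 ratio differences changed sign with 1 mouse left out, over -0.16 to 0.26 for *Col4a3* to *Col4a1* and -0.0076 to 0.075 for *Col4a1* to *Col4a2*. *Col5a2* in RC/RC:*Casp1*KO against RC/RC became 0.15 without the 4 mice and ranged from -0.50 to 0.047 with 1 mouse left out, the latter without double mutant mouse 42. Of 95 fold changes refitted 1540 times, 15 changed sign in 55 refits; 0 of them had passed, and the largest was 0.30 in size. Library size alone moved the median of all genes to 0.14 in RC/RC:*Casp1*KO against WT, from 0.01. The causes of these changes were not tested, and the smaller groups leave fewer mice per test. Reads limit the 13 collagens below 1 CPM.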
